A study of Mus musculus with 8 samples.

Results

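Voltage-gated calcium channels were followed in interscapular brown adipose tissue (BAT) through 10 subunit genes, taken by gene symbol out of 33641 genes in the deposited tables. They were *Cacnb1*, *Cacnb2*, *Cacnb3* and *Cacnb4*, which encode β subunits, *Cacna2d1* and *Cacna2d3*, which encode α2δ subunits, and *Cacna1a*, *Cacna1c*, *Cacna1d* and *Cacna1h*, which encode pore-forming α1 subunits. *Cacnb4* was chosen by its lower level in the libraries labelled HuR KO in this same contrast, and for the stability of that fall. Its values, and their range over alternatives, are therefore given as a description with no test. The other 9 genes were picked to show whether a paralog or a pore subunit differed in the opposite direction. All 8 mice had the C57BL/6 strain label and were 28 weeks old, and poly(A) libraries were made from RNA of the whole tissue. The 3 libraries labelled control here (A7, A8 and A12) have titles with WT BAT and were from wild-type littermates. In the study's methods this name covers mice with Cre and no floxed allele and mice with 1 or 2 floxed alleles and no Cre. Which of these each animal carried, and its sex and diet, are not given in the sources used here. A24, A25, A26, A29 and A31, the 5 libraries labelled *Adipo-HuR-/-* here, have titles with HuR KO BAT. They were from mice with floxed *Elavl1* alleles and a Cre driven by the adiponectin promoter. Deletion is thus limited to cells that express adiponectin, while the RNA comes from every cell of the depot. The group sizes in the legend of the paper run the other way round from the labels, and the labels were followed. Each library carries its own animal label. The paper describes how tissues were removed at euthanasia, but the litter and collection day of each animal are not given in the sources used here.

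Voltage-gated calcium channels open when the membrane is depolarized and let calcium into the cell. The α1 subunit forms the pore, the cytoplasmic β subunit binds its intracellular linker and helps to bring the channel to the membrane, and the extracellular α2δ subunit raises the number of channels at the surface. T-type pores such as that of *Cacna1h* do not need these partners. HuR, encoded by *Elavl1*, binds AU-rich and U-rich stretches of mRNA, often in the 3ʹUTR, and is known for the stabilization of its targets.

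The summed counts per library were 60622522 (A7), 51751002 (A8) and 50673814 (A12) with the label control. With the label *Adipo-HuR-/-* they were 18264754 (A24), 17558090 (A25), 67498055 (A26), 50893173 (A29) and 58727739 (A31). A24 and A25 were thus the shallowest, and 3 counts, the floor under which a gene is not taken as detected, stood for 0.164 CPM and 0.171 CPM there against 0.0444 CPM in A26. Values below are TMM-normalized CPM, which are counts set to 1 common library size. Log2 fold changes above 0 mean more RNA in the libraries labelled *Adipo-HuR-/-*. Past the threshold means an adjusted p of 0.05 or less together with a fold change of 1.5 or more.

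*Elavl1* (chromosome 8, 4285382 to 4325413, minus strand, GRCm38) had 50.6 CPM (A7), 48.0 (A8) and 49.2 (A12). Labelled *Adipo-HuR-/-*, the other 5 had 61.9 CPM (A24), 47.3 (A25), 43.4 (A26), 61.3 (A29) and 61.2 (A31). The deleted gene thus had no lower total with that label (log2 fold change 0.16, adjusted p = 0.667, edgeR quasi-likelihood test, Benjamini-Hochberg). The level of the gene is therefore no check of the labels, on which all directions below rest. The paper describes calcium transport genes as mostly lower after the deletion, which is also the direction the labels give for *Cacnb4*, but as those calls were made on these data they are no separate check.

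All 10 genes of a brown adipocyte list, among them *Ucp1*, *Cidea*, *Adipoq* and *Fabp4*, were above the floor in every library. *Ucp1* lay between 4251 CPM (A25) and 11438 CPM (A8), and none of the 10 was past the threshold by edgeR's quasi-likelihood test, with 0 at an unadjusted p under 0.05 and 0 in DESeq2's Wald test. Skeletal muscle RNA differed between the libraries. The 26 genes of a skeletal muscle list summed to 4804 CPM (A7), 3204 (A8) and 122 (A12) among the libraries labelled control. They summed to 123 CPM (A24), 76.2 (A25), 102.5 (A26), 109.7 (A29) and 602 (A31) among those labelled *Adipo-HuR-/-*. In A12, A24, A25, A26 and A29 *Myl1* and *Des* made up most of the sum, with 52.4 and 56.2 CPM in A12. *Acta1* was at 0.104 CPM in A12, against 54.0 CPM in A31 and 619 CPM in A7. All 26 were above the floor in A7, A8 and A31, whereas the number was 16 (A12), 11 (A24), 11 (A25), 19 (A26) and 16 (A29) in the others. Per length the most abundant gene of the list was *Acta1* in A7, *Tnnt3* in A8 and *Myl1* in the other 6, and *Pvalb*, a marker of fast muscle fibres, was at 0 in A12, A24, A25, A26 and A29. Of the 26, 2 fell past the threshold (*Myh7* and *Myl1*, edgeR quasi-likelihood test, Benjamini-Hochberg), 23 had an unadjusted p under 0.05 and 8 were past it in DESeq2's Wald test, beside 0.707%, 17.0% and 5.54% of all genes tested. A7, A8 and, to a lesser degree, A31 therefore held muscle RNA that the other 5 libraries did not hold at a like level, and channel genes that are high in muscle are given with these libraries in view. In whole tissue, fewer cells of a type and less RNA per cell cannot be told apart.

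*Cacnb4*, the β4 subunit gene (chromosome 2, 52428320 to 52676831, minus strand), had 6.77 CPM (A7), 8.71 (A8) and 7.33 (A12). With the label *Adipo-HuR-/-* it had 1.35 CPM (A24), 0.949 (A25), 1.26 (A26), 1.04 (A29) and 1.56 (A31). Every library labelled control was above every library labelled *Adipo-HuR-/-*, and the groups did not overlap, a difference the gene was chosen by. Of all 14851 genes tested, 11.5% had groups that did not overlap, and nothing is read from this count for *Cacnb4*. The mean was 7.60 ± 0.999 CPM (SD, n = 3) against 1.23 ± 0.245 CPM (SD, n = 5), which makes a log2 fold change of −2.62 (standard error, SE, 0.224). A12, with little muscle RNA, lay between A7 and A8. The log2 fold change was −2.49 with the skeletal muscle score as a covariate. It was −2.67 without A7, A8 and A31, where A12 is the only library labelled control. The gene was chosen for a stable fall, so these values are a description, and a part of muscle RNA in the difference was not tested. In counts, A25 and A24 rested on 20 and 24 and A7 on 418.

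The annotation lists 6 transcripts of *Cacnb4*. Nearly all of its count was assigned to Cacnb4-202 (7872 bases, 52428325 to 52558560), which starts inside the gene and made up 93.2% of the count in the libraries labelled control and 93.0% in those labelled *Adipo-HuR-/-*. It had 5.61 CPM (A7), 8.71 (A8) and 7.25 (A12), against 1.35 (A24), 0 (A25), 1.26 (A26), 1.04 (A29) and 1.56 (A31). In A25 the whole count of the gene was instead assigned to Cacnb4-201 (8225 bases, 52428325 to 52676831), and in A7 a level of 1.16 CPM was assigned to Cacnb4-206 (7981 bases), both of which start at the far end of the gene. This division between transcripts is an estimate and less certain than the gene total. The last exon of Cacnb4-202 (52428325 to 52434749) also overlaps *A430018G15Rik* on the plus strand, with 1433 exon bases in common between the genes. *A430018G15Rik* has no values under this name in the deposited counts. As the sources used here do not state that the counting used strand, reads from the pair cannot be told apart.

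The 3ʹUTR of Cacnb4-202 is 6164 bases long and was searched on the transcribed strand for the pentamer ATTTA and the nonamer TTATTTATT, which contains it, as letters found in AU-rich elements. It held 22 pentamers, where the 190 other tested genes with a 3ʹUTR within 10% of this length had a median of 11 and 4.74% of them held as many. The nonamer occurred 1 time, and 25.8% of those 190 3ʹUTRs held it. The site is shown because it is the only nonamer in the 3ʹUTRs of the most counted coding transcript of each of the 10 genes. It lies at chr2:52428620-52428648 of GRCm38 on the minus strand, in the last exon, with the nonamer in capitals and the sequence taken from GENCODE M21.

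Cacnb4 3ʹUTR site: tttcctttgcTTATTTATTtcaataattt

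Per kilobase of 3ʹUTR the pentamer count was 3.57 for Cacnb4-202, 3.11 for Cacna2d3-201 (1 in 322 bases), 2.35 for Cacna2d1-202 (9 in 3830), 1.41 for Cacna1d-202 (3 in 2132), 0.752 for Cacna1c-207 (5 in 6652) and 0.550 for Cacna1h-202 (1 in 1818). It was 0 for Cacnb1-201 (1393 bases), Cacnb3-202 (958), Cacna1a-211 (538) and Cacnb2-214 (135). The median of 3ʹUTRs of like length was 6 pentamers for *Cacna2d1*, 12 for *Cacna1c*, 3 for *Cacna1d* and *Cacna1h*, 2 for *Cacnb1*, 1 for *Cacnb3* and *Cacna1a* and 0 for *Cacnb2* and *Cacna2d3*. A match of letters is a description and not a binding site, and a window without a match says nothing of HuR.

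The β paralogs of *Cacnb4* were next compared. None of the 9 members other than *Cacnb4* was past the threshold by edgeR's quasi-likelihood test, where 0.707% of all genes tested were. Of these 9, 1 (*Cacna2d1*) had an unadjusted p under 0.05 and 1, the same gene, was past the threshold in DESeq2's Wald test, beside 17.0% and 5.54% of all genes tested. With so few genes, a share near the background is no result about them.

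*Cacnb1*, the β1 subunit gene and a part of the skeletal muscle channel, had 4.68 CPM (A7), 4.20 (A8) and 1.07 (A12). Labelled *Adipo-HuR-/-*, the other 5 had 1.35 CPM (A24), 1.09 (A25), 2.13 (A26), 2.84 (A29) and 2.18 (A31). The high values of the libraries labelled control were those of A7 and A8, which held muscle RNA, while A12 was the lowest of all 8, and the groups overlapped. The log2 fold change was −0.77 (SE 0.456, adjusted p = 0.429, edgeR quasi-likelihood test, Benjamini-Hochberg). It turned to 0.32 (adjusted p = 0.834) with the skeletal muscle score as a covariate and to 0.82 (adjusted p = 0.567) without A7, A8 and A31, where A12 is the only library labelled control and is assumed to vary like the others.

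*Cacnb3*, the β3 subunit gene, had 0.972 CPM (A7), 1.14 (A8) and 1.11 (A12). With the label *Adipo-HuR-/-* it had 0.846 CPM (A24), 1.04 (A25), 1.21 (A26), 1.86 (A29) and 1.59 (A31). A26, A29 and A31 were above all 3 libraries labelled control and A24 was below them, so that the groups overlapped. The log2 fold change was 0.31 (SE 0.319, adjusted p = 0.677, edgeR quasi-likelihood test, Benjamini-Hochberg). *Cacnb2*, the β2 subunit gene, lay near the floor, with 1 to 18 counts per library and 7 of 8 libraries above the floor. It had 0.275 ± 0.0902 (SD, n = 3) and 0.151 ± 0.0972 (SD, n = 5) in CPM with overlapping groups, and a log2 fold change of −1.04 (SE 0.667, adjusted p = 0.465 in the same test) that was −1.82 (adjusted p = 0.437) with the skeletal muscle score as a covariate.

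**Figure D1:**
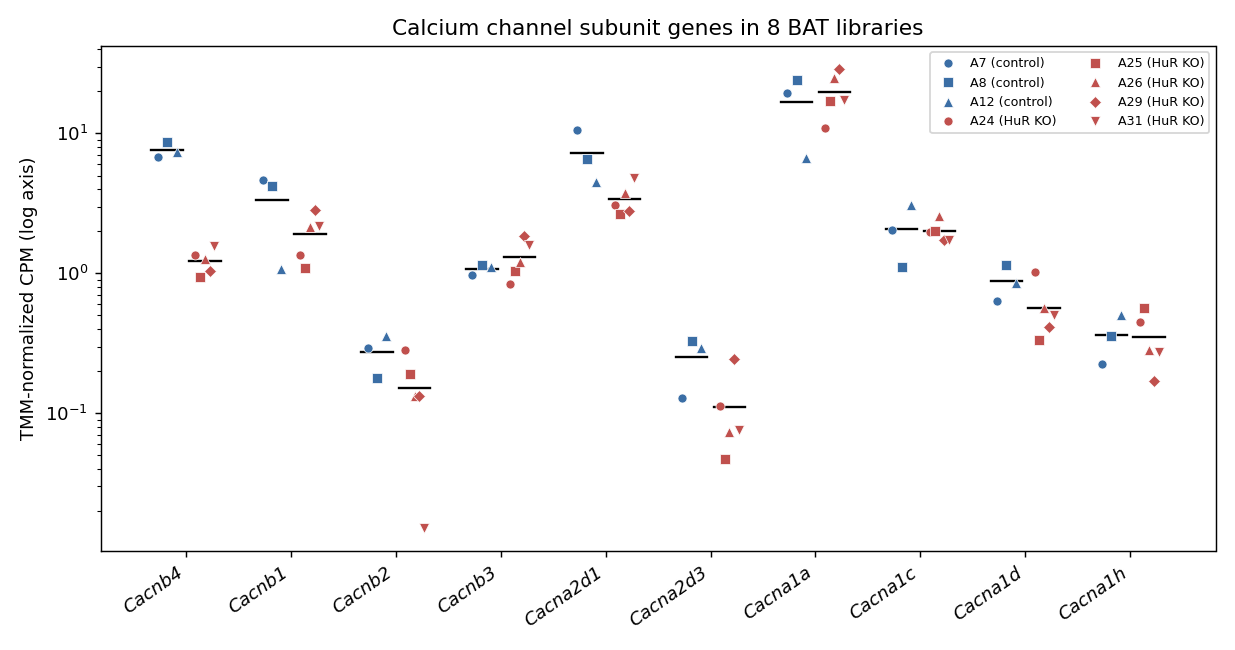
TMM-normalized CPM on a log axis of the 10 subunit genes in each of 8 BAT libraries, with 3 labelled control in blue and 5 labelled HuR KO in red, a symbol per library and a black line at the mean of each group. *Cacnb4*, chosen by its difference, is the gene whose groups do not overlap, whereas *Cacnb1* and *Cacna1a* have their lowest value in the control library A12.

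To add the levels of different genes, counts were divided by the length of the transcript they were assigned to, which gives CPM per kilobase. On this scale *Cacnb1*, *Cacnb2* and *Cacnb3* together stood at 2.91 (A7), 2.89 (A8) and 1.02 (A12). In the libraries labelled *Adipo-HuR-/-* the summed level was 1.25 (A24), 1.04 (A25), 1.83 (A26), 2.51 (A29) and 1.75 (A31). Every library labelled *Adipo-HuR-/-* lay between A12 and the other 2 libraries labelled control. The means were 2.27 ± 1.09 (SD, n = 3) and 1.68 ± 0.574 (SD, n = 5). They differed by less than the SD of the libraries labelled control and by slightly more than that of the others. The log2 ratio of −0.44 became 0.70 without A7, A8 and A31.

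Of the summed level of all 4 β genes per length, *Cacnb4* made up 22.8% (A7), 27.7% (A8) and 54.3% (A12). It made up 12.1% (A24), 10.03% (A25), 8.03% (A26), 5.004% (A29) and 10.2% (A31). The share was highest in A12, where *Cacnb1* was low and 4 counts on the short transcript Cacnb4-204 (290 bases) weigh heavily per length. It was 49.3% there with coding transcripts alone, a choice made after seeing the data, and these shares carry the difference by which *Cacnb4* was chosen. In absolute level *Cacnb4* stood at 1.06 ± 0.181 CPM per kilobase (SD, n = 3) in the libraries labelled control, within the spread of *Cacnb1* (1.71 ± 1.05, SD, n = 3) and above every value of *Cacnb3* (0.412 ± 0.0384, SD, n = 3). In the libraries labelled *Adipo-HuR-/-* it stood at 0.156 ± 0.0326 (SD, n = 5), below every value of *Cacnb3* (0.512 ± 0.164, SD, n = 5) and *Cacnb1* (1.07 ± 0.468, SD, n = 5) and with a range that overlapped that of *Cacnb2* (0.0918 ± 0.0609, SD, n = 5). All 4 β genes together had 3.33 ± 0.962 (SD, n = 3) and 1.83 ± 0.577 (SD, n = 5), with A29 at 2.64 above A12 at 2.23. With coding transcripts alone, a choice made after seeing the data, they had 2.82 ± 0.833 (SD, n = 3) and 1.42 ± 0.296 (SD, n = 5) without overlap, a sum that again carries the difference by which *Cacnb4* was chosen.

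**Figure D2:**
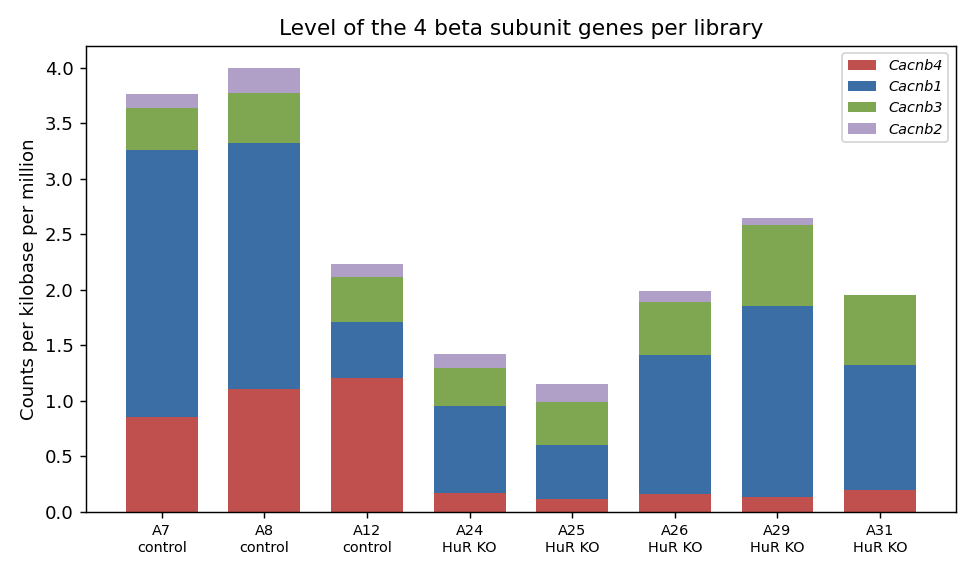
CPM per kilobase of the 4 β subunit genes, stacked for each of the 8 libraries, with the axis starting at 0. *Cacnb4* takes 54.3% of the bar of A12 and between 5.004% and 12.1% of the bars labelled HuR KO, while *Cacnb1* is large in A7 and A8.

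The α2δ genes were compared in the same way. *Cacna2d1*, which encodes the α2δ-1 subunit found in muscle channels and the target of gabapentin, had 10.6 CPM (A7), 6.53 (A8) and 4.47 (A12). Labelled *Adipo-HuR-/-*, the other 5 had 3.10 CPM (A24), 2.66 (A25), 3.73 (A26), 2.78 (A29) and 4.79 (A31). The order followed the muscle RNA in part, as A7 was highest in its group and A31 in the other, and A31 exceeded A12. The log2 fold change was −1.07 (SE 0.299, adjusted p = 0.113, edgeR quasi-likelihood test, Benjamini-Hochberg) and the adjusted p was 0.0207 in DESeq2's Wald test, within a range of 0.0207 to 0.524 over all alternatives. It was −0.50 with the skeletal muscle score as a covariate, −0.54 without A7, A8 and A31 and −0.68 without A7 alone. *Cacna2d3*, the α2δ-3 subunit gene, lay near the floor with 1 to 14 counts per library. It had 0.250 ± 0.106 (SD, n = 3) and 0.111 ± 0.0790 (SD, n = 5) in CPM with overlapping groups. Its log2 fold change was −1.08 (SE 0.603, adjusted p = 0.392, edgeR quasi-likelihood test).

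In CPM per kilobase the α2δ genes together stood at 2.23 (A7), 1.86 (A8) and 1.49 (A12), against 1.29 (A24), 1.05 (A25), 1.20 (A26), 0.940 (A29) and 1.58 (A31). A31 was above A12, and the other 4 libraries labelled *Adipo-HuR-/-* were below every library labelled control. The means were 1.86 ± 0.371 (SD, n = 3) and 1.21 ± 0.245 (SD, n = 5), a log2 ratio of −0.62 that was −0.41 without A7, A8 and A31. The retained-intron transcript Cacna2d1-211 took 26.7% of the *Cacna2d1* count in the libraries labelled *Adipo-HuR-/-* and 12.3% in those labelled control. Its own level was alike in both, at 0.955 and 0.964 CPM in that order. With coding transcripts alone, a choice made after seeing the data, the log2 ratio of the α2δ sum was −1.0.

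*Lrtm1* (chromosome 14, 29018208 to 29033645, plus strand) lies inside *Cacna2d3*, which is on the minus strand, and shares 0 exon bases with it. This gene was chosen after its values were seen, and it had 2.87 CPM (A7), 2.28 (A8) and 1.98 (A12), against 0.169 (A24), 0.237 (A25), 0.326 (A26), 0.625 (A29) and 0.288 (A31). These values are a description with no test, as the choice of the gene followed them. *Cacna2d3* around it was near the floor in both groups.

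The pore genes came next. *Cacna1a*, which encodes the P/Q-type pore best known from nerve terminals, had 19.5 CPM (A7), 24.2 (A8) and 6.64 (A12). With the label *Adipo-HuR-/-* it had 11.0 CPM (A24), 17.0 (A25), 24.7 (A26), 28.9 (A29) and 17.4 (A31). A12 was the lowest and A29 the highest of the 8, and the groups overlapped. The log2 fold change was 0.25 (SE 0.401, adjusted p = 0.803, edgeR quasi-likelihood test, Benjamini-Hochberg). It turned to −0.13 without A12 and was 1.63 (adjusted p = 0.303) without A7, A8 and A31, where A12 alone stands for the libraries labelled control.

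In the means of both groups, most of the *Cacna1a* count did not come from coding transcripts, although these held the larger part in A24 and A29. By group, coding transcripts held 38.6% of the count in the libraries labelled control and 48.0% in those labelled *Adipo-HuR-/-*. The rest was assigned mainly to the retained-intron transcripts Cacna1a-207 (84601444 to 84613042), Cacna1a-208 (84601431 to 84612080) and Cacna1a-209 (84601470 to 84634524) and the processed transcript Cacna1a-210 (84601973 to 84617897), all in the 3ʹ part of the gene (chromosome 8, 84388440 to 84640246, plus strand). *Gm16183*, annotated on the other strand from 84611202 to 84617184, shares 435 exon bases with *Cacna1a*. It has no values under this name in the deposited counts, and reads from the pair cannot be told apart without strand. The coding transcript Cacna1a-211 (7503 bases) had 8.27 CPM (A7), 7.44 (A8) and 2.77 (A12), against 5.99 (A24), 8.48 (A25), 10.01 (A26), 15.03 (A29) and 6.90 (A31). It too was lowest in A12 and highest in A29, with a log2 fold change of 0.53 (SE 0.432, adjusted p = 0.874 over all transcripts tested, edgeR quasi-likelihood test, Benjamini-Hochberg).

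*Cacna1c*, which encodes the L-type pore of heart and smooth muscle, had 2.04 CPM (A7), 1.11 (A8) and 3.07 (A12). Labelled *Adipo-HuR-/-*, the other 5 had 1.97 CPM (A24), 1.99 (A25), 2.56 (A26), 1.74 (A29) and 1.74 (A31). All 5 libraries labelled *Adipo-HuR-/-* lay between A8 and A12, and the log2 fold change of −0.05 (SE 0.328, adjusted p = 0.952, edgeR quasi-likelihood test, Benjamini-Hochberg) was 0.13 with scaling by total counts, which moved the median of all genes tested to 0.23, and 0.34 without A12. It was −0.38 with the skeletal muscle score as a covariate and −0.57 without A7, A8 and A31. *Cacna1d*, another L-type pore, had 0.876 ± 0.254 (SD, n = 3) and 0.565 ± 0.266 (SD, n = 5) in CPM, overlapping groups and a log2 fold change of −0.65 (SE 0.410, adjusted p = 0.459 in the same test). *Chdh* on the other strand shares 589 exon bases with *Cacna1d* and had 91.1 ± 17.8 (SD, n = 3) and 66.8 ± 13.7 (SD, n = 5) in CPM, a level at which a small share of its reads would matter to *Cacna1d*. *Cacna1h*, the T-type pore, had 7.6 to 24 counts per library, 0.361 ± 0.138 (SD, n = 3) and 0.349 ± 0.159 (SD, n = 5) in CPM, and a log2 fold change of −0.12 (SE 0.490, adjusted p = 0.929 in the same test). Its sign also turned with scaling by total counts, to 0.14, and without A12, to 0.20, or A29, to 0.07, while it was −0.56 without A24 and A25.

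In CPM per kilobase the 4 pore genes together stood at 14.4 (A7), 22.6 (A8) and 5.95 (A12), against 7.81 (A24), 10.7 (A25), 18.3 (A26), 17.5 (A29) and 11.4 (A31). The groups overlapped, and *Cacna1a* made up between 86.3% (A12) and 98.2% (A8) of the sum. The means were 14.3 ± 8.34 (SD, n = 3) and 13.2 ± 4.55 (SD, n = 5), a log2 ratio of −0.12 that became 1.19 without A7, A8 and A31. With coding transcripts alone, a choice made after seeing the data, they were 1.15 ± 0.315 (SD, n = 3) and 1.55 ± 0.458 (SD, n = 5), a log2 ratio of 0.44, again with overlap. *Cacna1a* made up less of this coding sum, with 46.1% in A12 and between 73.2% (A24) and 91.3% (A29) in the other libraries.

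In the order of levels in CPM per kilobase over all transcripts, *Cacna1a* came first in both groups, at 13.8 and 12.8 and without overlap with the next gene, *Cacna2d1* (1.79 and 1.18). *Cacnb4* came after *Cacnb1* in the libraries labelled control, in place 4, and after *Cacna1c* (0.242) in those labelled *Adipo-HuR-/-*, in place 6. Over coding transcripts, a choice made after seeing the data, *Cacnb1* (1.40), *Cacna2d1* (1.27), *Cacnb4* (0.962) and *Cacna1a* (0.834) led in the libraries labelled control, and each overlapped the next. *Cacnb3* followed at 0.412 and was above every value of *Cacna1c*, *Cacna1d*, *Cacna2d3*, *Cacnb2* and *Cacna1h*, whose means ran from 0.169 to 0.0445. In the libraries labelled *Adipo-HuR-/-* *Cacna1a* (1.29), *Cacnb1* (0.719), *Cacna2d1* (0.642) and *Cacnb3* (0.512) led, each overlapping the next. *Cacnb4* (0.156) came next there, below every value of *Cacnb3* and level with *Cacna1c* (0.154).

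**Figure D3:**
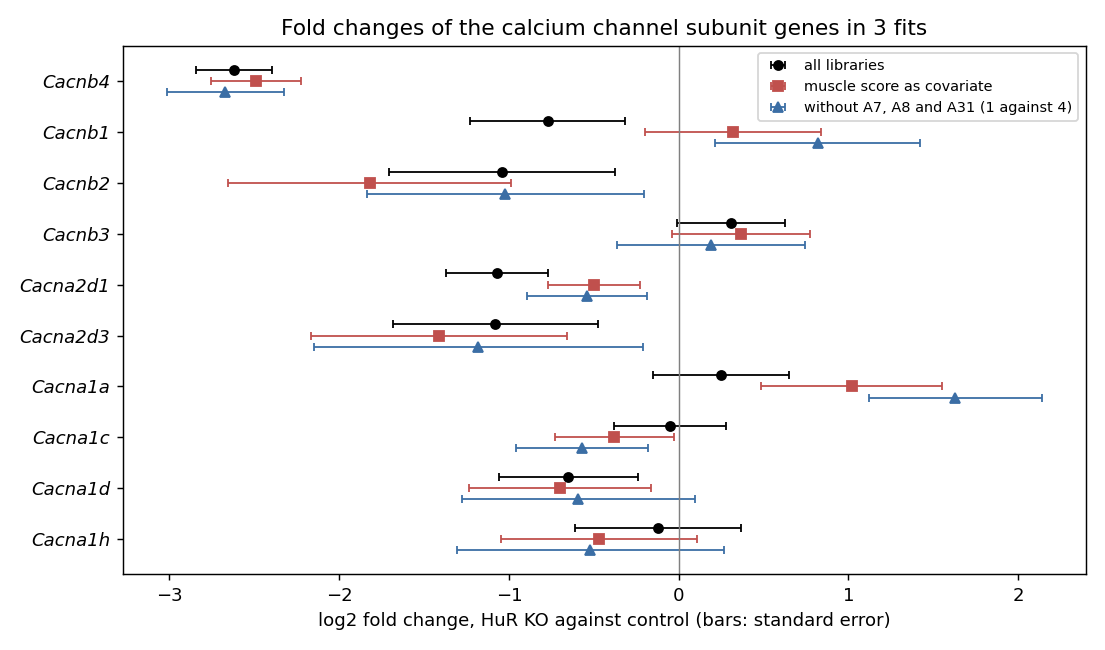
Log2 fold change of libraries labelled HuR KO against control for the 10 subunit genes, with bars of 1 standard error, in the fit of all 8 libraries (black), with the skeletal muscle score as a covariate (red) and without A7, A8 and A31 (blue, 1 library against 4). *Cacnb4*, chosen for a stable fall, lies between −2.49 and −2.67. *Cacnb1* moves from −0.77 to 0.32 and 0.82, and *Cacna1a* moves from 0.25 to 1.02 and 1.63.

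Of the 94 transcripts of the 10 genes, 55 had more than 3 counts over all libraries and 21 passed the filter on low counts. None of the 20 tested transcripts outside *Cacnb4* was past the threshold, where 0.00957% of the 41808 transcripts tested were, and 3 of the 20 had an unadjusted p under 0.05 by the quasi-likelihood test of edgeR, where 8.17% of all did. Cacnb1-204 had 2.15 CPM (A7), 2.62 (A8) and 0.492 (A12), against 0 (A24), 0.207 (A25), 0.111 (A26), 0.222 (A29) and 0.318 (A31) (adjusted p = 0.359 with Benjamini-Hochberg adjustment). Cacnb1-202 was at 0 in A7, A8, A12 and A24 and had 0.460 CPM (A25), 0.700 (A26), 0.714 (A29) and 0.912 (A31) (adjusted p = 0.359). Both are coding transcripts of *Cacnb1* and stand in opposite directions, and the division of the *Cacnb1* count between them is an estimate. Cacna2d1-202, the coding transcript of *Cacna2d1* with the most counts, had 4.68 CPM on average in the libraries labelled control and 1.29 in those labelled *Adipo-HuR-/-* (adjusted p = 0.472).

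The other 16 channel subunit genes were read from a list. Of the 11 that could be tested none was past the threshold by edgeR's quasi-likelihood test or in DESeq2's Wald test, and 4 had an unadjusted p under 0.05, all with a lower mean in the libraries labelled *Adipo-HuR-/-*. Over all genes tested 17.0% had such a p. The median log2 fold change of the 11 was −0.23, beside 0.00 over all genes tested. It turned to 0.20 with the skeletal muscle score as a covariate, with 0 lower and 1 higher at an unadjusted p under 0.05, and was −0.04 with scaling by total counts. Without A7, A8 and A31 only 7 of the genes could be tested, with *Cacna1s*, *Cacng1* and *Cacng6* among those lost, and their median of 0.21 cannot be set beside that of the 11. *Cacna1s*, the pore of the skeletal muscle channel, had 31.6 CPM (A7), 14.0 (A8) and 0 (A12), against 0.0564 (A24), 0 (A25), 0 (A26), 0 (A29) and 2.73 (A31). *Cacng6*, a γ subunit gene of muscle, followed the same libraries, with 2.88 CPM (A7), 2.35 (A8), 0.258 (A31) and 0 in the other 5. *Cacng1*, the other γ subunit gene of muscle, was also highest in A7 (1.31 CPM) and A8 (1.04 CPM), but A24 (0.338 CPM) and A25 (0.190 CPM) were above A31 (0.182 CPM). As A24 and A25 are shallow, with floors of 0.164 and 0.171 CPM, these values rest on few counts and their order carries little weight. *Cacng2*, a γ subunit gene known from neurons, was not distributed in this way, with 0.955 CPM (A7), 1.24 (A8) and 1.15 (A12), against 0.169 (A24), 0.0474 (A25), 0.459 (A26), 0.492 (A29) and 0.606 (A31). Its groups did not overlap, which held for 11.5% of all genes tested, and A24 was close to its floor and A25 under it. The log2 fold change of *Cacng2*, −1.53 (SE 0.531), missed the threshold (adjusted p = 0.177, edgeR quasi-likelihood test, Benjamini-Hochberg).

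Proteins that bind or restrain the β subunit were followed next. Of 9 such genes 7 were tested and none was past the threshold by edgeR's quasi-likelihood test, with 2 at an unadjusted p under 0.05 and 1 (*Gem*) past it in DESeq2's Wald test, beside 17.0% and 5.54% of all genes tested. *Gem*, a small GTPase that binds β subunits and inhibits the channel, had 1.34 CPM (A7), 1.14 (A8) and 3.11 (A12), against 11.96 (A24), 4.13 (A25), 2.61 (A26), 2.35 (A29) and 7.07 (A31). A12 was above A26 and A29, and the log2 fold change was 1.58 (SE 0.586, adjusted p = 0.206, edgeR quasi-likelihood test, Benjamini-Hochberg). It was 1.10 without A24 and A25 and 0.72 without A7, A8 and A31. *Rims2*, a scaffold of the presynaptic active zone, had 1.59 ± 0.345 (SD, n = 3) and 0.973 ± 0.186 (SD, n = 5) in CPM without overlap (adjusted p = 0.244 in the same test). Over all genes tested 11.5% had groups without overlap. *Ahnak*, a large scaffold that binds β2, was the most abundant per length, with 402 ± 207 (SD, n = 3) and 281 ± 119 (SD, n = 5) in CPM.

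Among 20 regulators of the channels none was past the threshold by edgeR's quasi-likelihood test, 5 were in DESeq2's Wald test (*Jph1*, *Jph2*, *Nedd4l*, *Stac2* and *Stac3*), and 12 had an unadjusted p under 0.05, with 11 lower and 1 higher in mean. Over all genes tested these shares were 5.54% and 17.0%. With scaling by total counts these numbers were 5 lower and 2 higher, with the skeletal muscle score as a covariate 6 and 1, and without A7, A8 and A31 5 and 2. The median log2 fold change of the 20 was −0.46, with 16 lower and 4 higher. It was −0.28, with 14 lower and 6 higher, with the skeletal muscle score as a covariate. With scaling by total counts it was −0.27, with 13 lower and 7 higher. It became −0.05, with 10 lower and 10 higher, without A7, A8 and A31. Some of the 11 followed the muscle RNA. *Jph2*, which ties the plasma membrane to the sarcoplasmic reticulum, had 15.3 CPM (A7) and 7.24 (A8) but 1.13 (A12), against 0.852 to 2.09 CPM in the other group, and its log2 fold change of −2.69 was −0.19 without A7, A8 and A31. *Jph1*, *Stac3*, *Camk2a* and *Akap6* were likewise highest in A7 and A8. In the other 6, A12, which held little muscle RNA, was not the lowest of its group. *Nedd4l*, a ubiquitin ligase of channel subunits, had 104 CPM (A7), 49.5 (A8) and 94.5 (A12), against 33.3 (A24), 37.4 (A25), 38.4 (A26), 45.5 (A29) and 51.4 (A31), so that A31 exceeded A8, with a log2 fold change of −1.0 (SE 0.237, adjusted p = 0.0810, edgeR quasi-likelihood test, Benjamini-Hochberg, and 0.00520 in DESeq2's Wald test). *Ppp3ca* and *Ppp3cb*, the catalytic subunits of calcineurin, had log2 fold changes of −0.54 and −0.55 without overlap of the groups (adjusted p = 0.0818 and 0.0970 in the same test). Groups did not overlap in 5 of the 20 regulators, beside 11.5% of all genes tested. *Camk2d*, *Akap7* and *Nedd4* had log2 fold changes of −0.37, −0.53 and −0.60. *Stac2*, an adaptor that holds L-type channels at the membrane, had 0.340 CPM (A7), 0.380 (A8) and 0.355 (A12), against 1.80 (A24), 0.712 (A25), 2.86 (A26), 0.739 (A29) and 2.26 (A31). It was the only one of the 12 with a higher mean in the libraries labelled *Adipo-HuR-/-*, without overlap (log2 fold change 2.23, adjusted p = 0.0810 in edgeR's test and 0.00115 in DESeq2's Wald test).

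Store-operated entry, which admits calcium when the endoplasmic reticulum is emptied and does not need voltage, was read from 6 genes. None was past the threshold by edgeR's quasi-likelihood test or DESeq2's Wald test, and 2 had an unadjusted p under 0.05, beside 17.0% of all genes tested. *Saraf*, an inhibitor of this entry, had 79.3 CPM (A7), 113 (A8) and 119 (A12), against 179 (A24), 186 (A25), 125 (A26), 118 (A29) and 173 (A31), with a log2 fold change of 0.59 (adjusted p = 0.201, edgeR quasi-likelihood test, Benjamini-Hochberg). A29 lay just under A12, and the groups overlapped. *Orai1*, the pore, had 4.98 ± 1.19 (SD, n = 3) and 7.20 ± 1.47 (SD, n = 5) in CPM, and *Stim1*, the sensor, 98.9 ± 6.08 (SD, n = 3) and 103 ± 14.9 (SD, n = 5) in CPM.

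As several subunits are known from nerve, vessel wall and blood cells, their markers were read too. Of 12 neuron genes 3 were tested, *Dbh* was at 0 in every library, *Snap25* and *Syt1* were at 0 in 6 and 7 of 8 libraries, and *Th* was at 0 in 6. *Elavl3*, a neuronal relative of *Elavl1* in this list, nevertheless rose and was past the threshold in DESeq2's Wald test too, with 0.745 CPM (A7), 1.06 (A8) and 0.836 (A12), against 2.03 (A24), 3.46 (A25), 3.33 (A26), 5.32 (A29) and 6.07 (A31). Its groups did not overlap, which held for 11.5% of all genes tested, and its log2 fold change was 2.21 (SE 0.381, adjusted p = 0.0407, edgeR quasi-likelihood test, Benjamini-Hochberg). The call was lost with the skeletal muscle score as a covariate (2.45, adjusted p = 0.110), without A24 and A25 (2.47, 0.0608), with coding transcripts alone (2.23, 0.0553) and without A7, A8 and A31 (2.09, 0.270). The neuron genes summed to 3.62 ± 0.219 (SD, n = 3) and 7.62 ± 2.03 (SD, n = 5) in CPM, of which *Stmn2*, the most abundant per length, and *Elavl3* were the main part. *Stmn2* had 2.40 ± 0.232 (SD, n = 3) and 3.16 ± 0.585 (SD, n = 5), and *Elavl3* 0.881 ± 0.164 (SD, n = 3) and 4.0 ± 1.6 (SD, n = 5). The sums thus differed mostly by *Elavl3* and say little of the list as a whole. No gene was past the threshold by edgeR's quasi-likelihood test or DESeq2's Wald test among 10 mural and smooth muscle, 8 endothelial, 8 Schwann cell and 8 immune genes, and 2, 1, 2 and 1 of these had an unadjusted p under 0.05, beside 17.0% of all genes tested. The mural and smooth muscle genes summed to 398 ± 44.2 (SD, n = 3) and 379 ± 23.4 (SD, n = 5) in CPM. The endothelial genes summed to 446 ± 54.4 (SD, n = 3) and 510 ± 86.0 (SD, n = 5). For the Schwann cell genes the sums were 103 ± 19.6 (SD, n = 3) and 75.6 ± 15.4 (SD, n = 5). For the immune genes they were 70.7 ± 39.2 (SD, n = 3) and 65.8 ± 17.1 (SD, n = 5).

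The genes whose level over the 8 libraries was most like that of *Cacnb4*, by Pearson's r of log2 CPM among 14850 other genes tested, were *Gpt2* (0.995), *Sms* (0.987), *Pbx3* (0.984), *Mpp6* (0.981) and *Tle4* (0.980). The most opposite were *4933408B17Rik* (−0.986), *Morn4* (−0.985), *Tert* (−0.985), *Cdh24* (−0.978) and *Ssu2* (−0.976). As the level of *Cacnb4* falls into 2 separate ranges that are the labelled groups, such an r mostly repeats the difference between the groups. Within the 5 libraries labelled *Adipo-HuR-/-* the r of the genes most like *Cacnb4* ran from 0.54 (*Mpp6*) to 0.85 (*Gpt2*). That of the most opposite ran from −0.95 (*4933408B17Rik*) to −0.54 (*Cdh24*). Relations among so few libraries were not tested. *Gpt2*, an aminotransferase, had 97.9 CPM (A7), 127 (A8) and 82.9 (A12), against 10.2 (A24), 7.16 (A25), 10.8 (A26), 6.88 (A29) and 10.1 (A31). Among the members, r with *Cacnb4* ran from −0.313 for *Cacnb3* to 0.807 for *Cacna2d1*.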

How the data were processed

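Poly(A) RNA-seq of BAT from 8 mice was grouped by the labels. The deposited values are unnormalized estimated counts of transcripts, in which a read that fits more than 1 transcript is shared out. The paper names CLC Genomics Workbench for read mapping, and the program and annotation behind the estimated counts are not given in the sources used here. Of 105129 transcripts, 103635 matched GENCODE M21 (GRCm38) without version, and all 94 member transcripts had a length.

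Counts were summed by gene and rounded. In R 4.3.3 with edgeR 4.0.16, genes kept by filterByExpr were TMM-normalized (factors 0.763 to 1.20) and tested with glmQLFit and glmQLFTest, and p-values were adjusted over 14851 genes by Benjamini-Hochberg; transcripts were tested likewise. Standard errors are the size of the log2 fold change divided by the root of F. The fit was tested on simulated counts. DESeq2 1.42.0, Python 3.11.15, numpy 2.4.6, pandas 2.3.3 and matplotlib 3.10.9 were also used. The skeletal muscle score is the mean log2 CPM (prior count 2) of its 26 genes. Floors at 3 counts cover counting error only. Pairs of libraries of a group differed by more than counting noise (chi-square per degree of freedom at least 94.3).

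The members, lists and tests were chosen with earlier results of these data known, so permutation tests planned for the summed levels are not given. Named are the members, *Elavl1*, genes of the lists of other subunits, β partners, regulators and store-operated entry with an unadjusted p under 0.05 or among the 2 highest per length, the 5 genes most and least like *Cacnb4*, genes of the marker lists that are past the threshold, highest per length or at 0, examples of those lists, and genes that overlap a member; the regulators highest per length are not reported here. Alternatives were other normalizations, filters and units, DESeq2's Wald test, the muscle score as a covariate, libraries left out and, chosen after seeing the data, protein-coding transcripts only.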

Additional observations from a re-analysis of the deposited data

Results flagged for a closer look

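In the 5 libraries labelled *Adipo-HuR-/-*, 43 groups of values were searched for a library far from the others, and chance marks about 1 in 20 groups. A31 stood above the other 4 for the muscle genes *Cacna1s* (2.73 CPM, next 0.0564), *Cacng6* (0.258 CPM, the others at 0), *Camk2a* (0.985 CPM, next 0.207) and *Jph2* (2.09 CPM, next 1.09), and for the summed skeletal muscle list (602 CPM, next 123). A24, which has few counts, stood above the other 4 for the summed Schwann cell list (103 CPM, next 73.7) and the summed immune list (95.2 CPM, next 63.2). No value of the 10 subunit genes or of their 3 summed levels was marked in this way.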

How the results depend on the processing

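The log2 fold change of *Cacnb4* lay between −2.73 and −2.37 under 17 alternatives and is given with no test. As the gene was chosen for a stable fall in these data, this narrow range is no separate result. Among those of the other 9 members that could be tested, 0 were past the threshold under each alternative but DESeq2's Wald test, which called 1 (*Cacna2d1*). Only 8 could be tested without A24 and A25 and with protein-coding transcripts only, where *Cacnb2* was lost. Without A29 the number was also 8, as *Cacna2d3* was lost. Of 146 values of these 9, 137 kept their direction and 9 reversed, and 1 (*Cacna2d3* in the Wald test) has no adjusted p. *Cacnb1* reversed to 0.32 with the muscle score as a covariate and to 0.82 without A7, A8 and A31. *Cacna1c* turned to 0.13 and *Cacna1h* to 0.14 with total counts only. *Cacna1c* was 0.00 with protein-coding transcripts only, which is among the 9 by its sign before rounding and shows no direction. With each library left out in turn *Cacna1c* lay between −0.34 and 0.34, *Cacna1h* between −0.37 and 0.20 and *Cacna1a* between −0.13 and 0.61, and the reversals came without A12 and, for *Cacna1h*, also without A29. *Cacnb1* then lay between −1.19 and −0.43, *Cacnb2* between −1.34 and −0.68 and *Cacnb3* between 0.15 and 0.41. *Cacna2d1* lay between −1.32 and −0.68, *Cacna2d3* between −1.42 and −0.84 and *Cacna1d* between −0.93 and −0.42. *Cacnb3* was 0.55 with total counts only. At least 10 counts in every library left out *Cacnb2*, *Cacna2d3*, *Cacna1d* and *Cacna1h*.

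The 105 genes past the threshold became 823 in DESeq2's Wald test, 15 with the muscle covariate, 5 without A24 and A25, 4 without A7, A8 and A31, 32 with protein-coding transcripts only and 10 (without A26) to 190 (without A12) with each library left out. Of the 105, 69 were lower, against 25 of 121 with total counts only. The 4 transcripts past the threshold became 1 with total counts only, 25 with at least 10 counts in every library, 0 without A24 and A25 and 0 to 2 with each library left out. The log2 ratio of the summed β1 to β3 level was 0.70 without A7, A8 and A31 in place of −0.44 (left out in turn, −0.79 to −0.22), and that of the pore sum 1.19 in place of −0.12 (−0.49 to 0.37). The pore sum also turned sign, within the spread between libraries, to 0.13 in TPM, 0.18 without division by length, 0.14 without A24 and A25 and 0.44 with protein-coding transcripts only. That of the α2δ sum was −1.08 without division by length and −1.0 with protein-coding transcripts only in place of −0.62 (−0.75 to −0.46), and −0.41 without A7, A8 and A31. The causes were not tested.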
